A study of Mus musculus with 6 samples.

Results

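The genes described here encode 10 receptors for peptide hormones, of the 54532 genes in the table, found by symbol: the oxytocin receptor (Oxtr), the cytokine-type receptors for prolactin, growth hormone and leptin (Prlr, Ghr, Lepr), the receptor kinases for insulin and IGF-1 (Insr, Igf1r), the receptors for thyrotropin and glucagon (Tshr, Gcgr), and the natriuretic peptide receptors (Npr1, Npr3). They were selected on receptor function with the estrogen over vehicle differences in these same libraries already known, Oxtr being among the genes that stood out most. The differences between the groups are therefore given for the 10 receptors as a description, and no test of them is offered. Each symbol matched 1 row, and all 10 passed the filter on low counts.

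The libraries were made from total RNA of inguinal white adipose tissue (iWAT), a fat depot under the skin of the groin, taken from old mice after 7 days of cold, which induces heat-producing beige adipocytes. All animals had the cold, and 3 libraries came from mice given vehicle and 3 from mice given estrogen. Not given in the sources used here were strain, genotype, sex, age in numbers, the dose and route of estrogen, and whether each library was a separate animal. The spread between libraries may therefore be partly technical.

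Peptide hormones cannot cross the cell membrane and act through receptors on the cell surface. In fat, insulin promotes glucose uptake and lipid storage, while growth hormone, thyrotropin and natriuretic peptides can promote lipolysis. The oxytocin receptor couples mainly to Gq and calcium and is best known from uterus and mammary gland. In uterus, estrogen is known to raise it. Receptors of the prolactin and growth hormone family signal through JAK2 and STAT5, and NPR1 makes cGMP, whereas NPR3 mainly clears natriuretic peptides from the surroundings.

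Total counts per library ran from 16046601 to 20736771, and a count of 3 equalled 0.130 to 0.209 CPM (counts relative to library size, scaled between libraries by trimmed mean of M values, TMM). Adipocyte markers were present in every library, with a summed level of 33875 to 46002 CPM with vehicle and 47539 to 83808 CPM with estrogen. Some libraries stood apart. Estrogen replicate 3 had the highest adipocyte sum, the lowest sum of 15 fibroblast and progenitor markers (1893 CPM, against 8554 to 50210 CPM in the other 5), and Ucp1 at 10.2 CPM against 333 to 1754 CPM. Estrogen replicate 1 held 8534 CPM of skeletal muscle markers, against 3.30 to 75.9 CPM elsewhere, and 106 CPM of T cell markers, against 12.8 to 18.5 CPM. In whole tissue, fewer cells of a type and less RNA per cell cannot be told apart.

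The promoters of the receptors with the largest difference in either direction, Oxtr (higher with estrogen) and Npr3 (lower), are shown to give the sequence just before each start site. Each is the 250 bases before the annotated start (RefSeq, GRCm38.p6, minus strand), and capitals mark an estrogen response element half-site, GGTCA or its complement TGACC.

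Oxtr, chr6:112489826-112490075: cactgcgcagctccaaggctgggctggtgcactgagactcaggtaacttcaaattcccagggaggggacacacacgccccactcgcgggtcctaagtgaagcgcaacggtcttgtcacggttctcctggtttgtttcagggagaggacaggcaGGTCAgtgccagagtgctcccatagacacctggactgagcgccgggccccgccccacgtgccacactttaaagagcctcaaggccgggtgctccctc
Npr3, chr15:11907372-11907621: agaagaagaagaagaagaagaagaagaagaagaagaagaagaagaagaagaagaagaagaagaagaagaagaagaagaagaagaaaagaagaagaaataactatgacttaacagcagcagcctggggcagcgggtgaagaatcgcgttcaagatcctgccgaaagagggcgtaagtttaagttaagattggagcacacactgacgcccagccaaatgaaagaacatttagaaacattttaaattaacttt

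The Oxtr window held 1 half-site, beginning 97 bases before the start, and the Npr3 window held 0. The Oxtr bounds given with the counts reach to 112489943. Part of the Oxtr window, with its half-site, therefore lies inside the gene as it was counted. Both strands were searched. A half-site was present in 35.2% of the 32851 windows of this length in the same table, and the full palindrome, which is GGTCA and TGACC with any 3 bases between them, in 0.0639%. No full palindrome was found in the windows of the 8 receptors that had an entry. Npr1 and Igf1r also held 1 half-site each, and Prlr, Ghr, Lepr and Gcgr held 0 in any of their windows. These are matches of letters and not measured binding sites.

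Oxtr (ENSMUSG00000049112, chromosome 6, 112473683 to 112489943, minus strand, mm10) was about 3 times as high with estrogen and showed the clearest separation of the groups among the 10. Vehicle replicates 1 to 3 had 9.45, 9.92 and 5.94 CPM, and estrogen replicates 1 to 3 had 27.3, 26.3 and 27.7 CPM. Values of other genes are given in the same order of replicates. All estrogen libraries lay above all vehicle libraries, and they lay close together although the same 3 libraries differed widely in other receptors. The underlying reads were 186, 196 and 137 counts against 527, 401 and 398 counts. The log2 fold change was 1.68 ± 0.21 (SE), or 3.21-fold, and it stayed between 1.48 and 1.82 with any 1 library left out. No other annotated gene shared exon bases with Oxtr.

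Adipocyte markers were also higher with estrogen. Of the 15 markers, 14 had a positive log2 fold change, with a median of 0.54 against 0.0025 over all 15591 tested genes. Measured per 1000 counts of these adipocyte markers, Oxtr was at 0.230, 0.293 and 0.129 counts with vehicle and 0.556, 0.552 and 0.331 counts with estrogen. The groups stayed apart on this scale, with a log2 fold change of 1.14, where the median of all tested genes was -0.50. The share of all genes with groups apart on this scale was not counted. Myoepithelial cells of the mammary gland, which can lie within this fat pad, are another cell type known for Oxtr. Their keratin genes Krt5, Krt14 and Krt17 were at 0 in every library, and the 15 luminal epithelial markers together reached 2.78 to 4.52 CPM with vehicle and 1.39 to 2.95 CPM with estrogen. Of the remaining 6 of 9 myoepithelial markers, 3 (Acta2, Myh11 and Cnn1) are also on the smooth muscle list, and the 9 summed to 99.3 to 150 CPM against 94.1 to 104 CPM. The part of mammary cells in the Oxtr values was not tested.

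**Figure D1:**
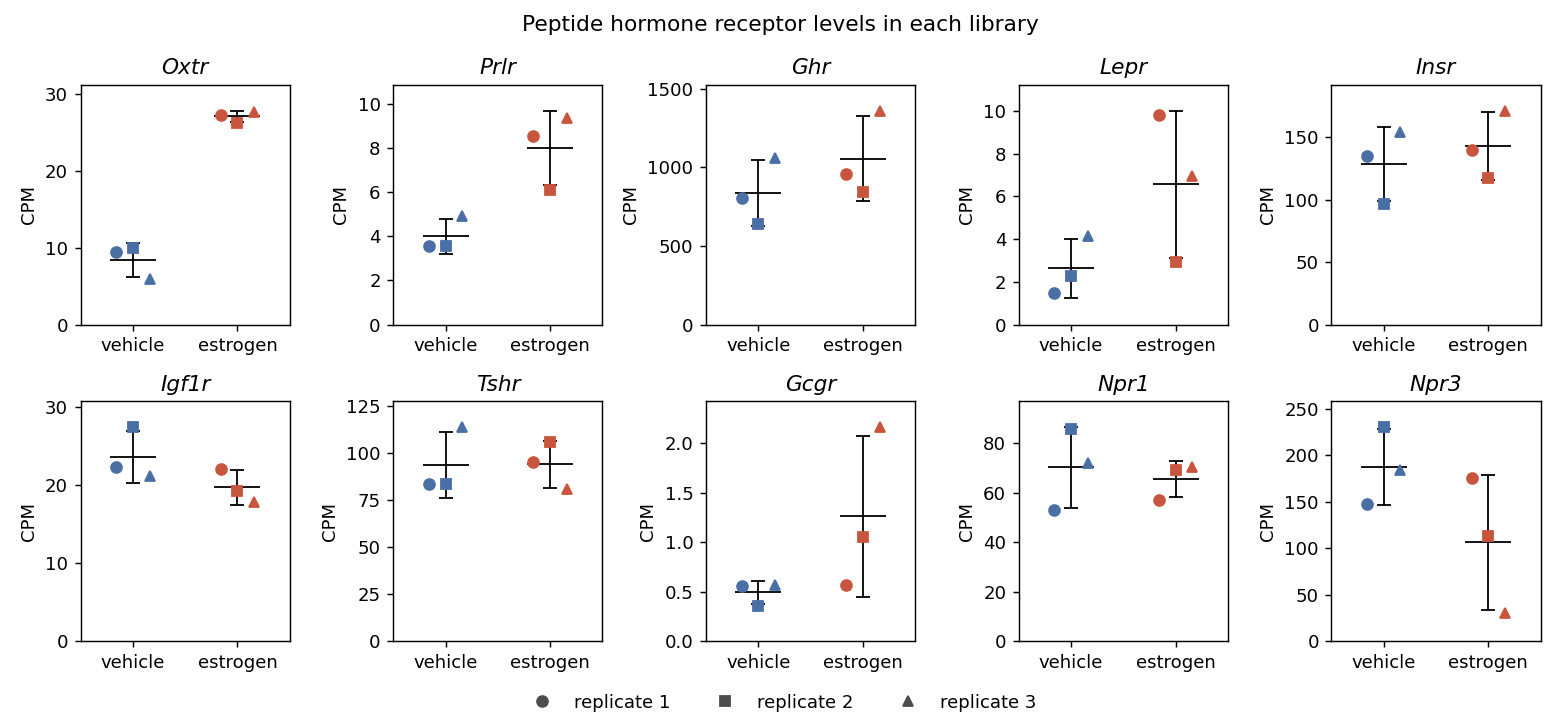
Level of each of the 10 receptor genes in TMM-scaled CPM (vertical axes, each starting at 0) in 3 vehicle (blue) and 3 estrogen (red) libraries. Symbols give the replicate, and black bars the group mean and SD. Oxtr sits at 26.3 to 27.7 CPM with estrogen and 5.94 to 9.92 CPM with vehicle, while Npr3 is spread from 30.2 to 175 CPM among the estrogen libraries.

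Of the 10 receptors, 3 had all estrogen libraries above all vehicle libraries (Oxtr, Prlr and Gcgr), where 12.8% of all tested genes did, and 0 had all estrogen libraries below, where 14.7% did. By edgeR's quasi-likelihood test adjusted over all genes, 0 of the 10 passed 0.05, as did 0% of all genes. At an unadjusted p under 0.05 there were 4 (Oxtr, Prlr, Lepr and Gcgr), beside 20.4% of all genes, and DESeq2 called 2 (Oxtr and Prlr), beside 6.09%. The unadjusted count was 2 with limma-voom and without vehicle replicate 1, vehicle replicate 2 or estrogen replicate 3. It was 3 with DESeq2, library totals, a replicate block or a filter of at least 1 CPM in 3 libraries. Without vehicle replicate 3 or estrogen replicate 2 it was also 3, and with scaling to adipocyte markers it was 1. Since the receptors were picked with this comparison known, these counts are printed for the record only.

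Among the cytokine-type receptors, Prlr and Lepr were low genes with higher means with estrogen, and Ghr was an abundant gene. The groups were apart for Prlr and overlapped for Lepr and Ghr. Prlr, which binds prolactin (ENSMUSG00000005268, chromosome 15, 10177238 to 10349180), was at 3.56, 3.54 and 4.90 CPM with vehicle and 8.55, 6.09 and 9.33 CPM with estrogen. In CPM all estrogen libraries lay above the vehicle libraries, while the raw counts, at 93 to 165 against 70 to 113, overlapped. The log2 fold change was 0.996 ± 0.26 (SE), or 1.99-fold, with a range of 0.87 to 1.17 when each library was left out. Per 1000 adipocyte marker counts, Prlr was at 0.0864, 0.105 and 0.107 with vehicle and 0.174, 0.128 and 0.111 with estrogen. On that scale estrogen replicate 3 lay close to the vehicle libraries and the log2 fold change was 0.47. The median of all tested genes on the same scale was -0.50. Lymphocytes are also known to express Prlr, and 10 B cell markers summed to 115, 231 and 397 CPM with vehicle and 408, 150 and 744 CPM with estrogen. The sums overlapped, but all 6 B cell markers that could be tested had a positive log2 fold change (median 3.32). Of 8 tested T cell markers, 7 were positive (median 2.85). The part of lymphocytes in the Prlr values was not tested. Gm21973, which shares 203 exon bases with Prlr, was at 0 in every library.

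Lepr, the receptor of the adipocyte hormone leptin (ENSMUSG00000057722, chromosome 4, 101717404 to 101815352), was at 1.47, 2.28 and 4.17 CPM with vehicle and 9.80, 2.95 and 6.96 CPM with estrogen. The groups overlapped, since estrogen replicate 2 lay below vehicle replicate 3. The log2 fold change was 1.31 ± 0.53 (SE). It was 0.88 without estrogen replicate 1, the library with the highest Lepr, and 1.81 without vehicle replicate 3. Estrogen replicate 1 was also the library with high muscle and T cell markers, and their part in its Lepr level was not tested. The table counts whole genes, so the long signalling form of Lepr and its short forms, and likewise the long and short forms of Prlr, were not separated. The annotation lists 7 transcripts for Lepr and 12 for Prlr.

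Ghr, the growth hormone receptor (ENSMUSG00000055737, chromosome 15, 3317760 to 3583492), was at 803, 642 and 1059 CPM with vehicle and 961, 845 and 1361 CPM with estrogen. The groups overlapped. The log2 fold change of 0.34 ± 0.26 (SE) was 0.11 without estrogen replicate 3, which had the highest value. Per 1000 adipocyte marker counts Ghr was at 19.5, 19.0 and 23.0 with vehicle and 19.6, 17.8 and 16.2 with estrogen, so the sign of the difference turned on that scale, with a log2 fold change of -0.20. On that scale the median of all tested genes was -0.50.

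The receptor kinases showed small differences. Insr, the insulin receptor (ENSMUSG00000005534, chromosome 8, 3122061 to 3279617), was at 135, 96.6 and 154 CPM with vehicle and 140, 118 and 171 CPM with estrogen, with a log2 fold change of 0.15 ± 0.22 (SE). The groups overlapped almost fully. Igf1r, the receptor for IGF-1 (ENSMUSG00000005533, chromosome 7, 67952827 to 68233668), was at 22.3, 27.5 and 21.3 CPM with vehicle and 22.1, 19.2 and 17.8 CPM with estrogen, with a log2 fold change of -0.26 ± 0.15 (SE). The ranges of Igf1r met, as estrogen replicate 1 lay above vehicle replicate 3. Per 1000 adipocyte marker counts, Igf1r was at 0.542, 0.811 and 0.462 with vehicle and 0.450, 0.405 and 0.213 with estrogen, a log2 fold change of -0.77. Insr on that scale was at 3.29, 2.85 and 3.35 with vehicle and 2.84, 2.47 and 2.05 with estrogen, a log2 fold change of -0.37. All estrogen libraries then lay below all vehicle libraries for both genes, each by a small gap. The median of all genes on that scale was -0.50. Npr3 also lay below by a small gap there, and the share of all genes that did was not counted. Scaling by library totals in place of TMM moved the median of all genes to -0.17, and with it Insr to -0.03 and Igf1r to -0.42.

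The level of Insr per length was several times that of Igf1r in every library. The ratio of Insr to Igf1r RPKM (TMM-scaled CPM per kilobase of gene length) was 7.40, 4.30 and 8.87 with vehicle and 7.72, 7.46 and 11.7 with estrogen. The groups overlapped, with the lowest ratio in vehicle replicate 2 and the highest in estrogen replicate 3. The mean log2 ratio was 0.42 higher with estrogen, less than the within-group SD of 0.46, and 0.12 higher without vehicle replicate 2.

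Tshr and Gcgr, which both couple to Gs and cAMP, differed in level and pattern. Tshr, the thyrotropin receptor (ENSMUSG00000020963, chromosome 12, 91384563 to 91549808), was at 83.6, 83.9 and 114 CPM with vehicle and 95.2, 106 and 81.1 CPM with estrogen. The values overlapped fully, and the log2 fold change was 0.005 ± 0.17 (SE). Its sign was negative with 4 of the 6 libraries left out in turn. Gcgr, the glucagon receptor (ENSMUSG00000025127, chromosome 11, 120530699 to 120538986), rested on few reads: 11, 7 and 13 counts with vehicle and 11, 16 and 31 counts with estrogen. In CPM these were 0.559, 0.354 and 0.564 against 0.570, 1.05 and 2.16, so the groups did not overlap only by the small gap between estrogen replicate 1 and vehicle replicate 3. The Gcgr log2 fold change of 1.32 ± 0.55 (SE) was 0.69 without estrogen replicate 3.

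The natriuretic peptide receptors differed from each other. Npr1, the guanylyl cyclase that carries the signal (ENSMUSG00000027931, chromosome 3, 90450591 to 90465866), was at 53.2, 85.5 and 71.8 CPM with vehicle and 57.1, 69.1 and 70.1 CPM with estrogen, a log2 fold change of -0.10 ± 0.19 (SE). The groups overlapped fully, and the sign turned without vehicle replicate 2 (0.07). Npr3, the clearance receptor (ENSMUSG00000022206, chromosome 15, 11839896 to 11907287), was at 148, 230 and 184 CPM with vehicle and 175, 114 and 30.2 CPM with estrogen. Estrogen replicate 1 lay within the vehicle range, estrogen replicate 2 below it, and estrogen replicate 3 far below it. The log2 fold change of -0.82 ± 0.55 (SE) was -0.37 without estrogen replicate 3 and -1.38 without estrogen replicate 1.

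The Npr1 to Npr3 ratio per length was 0.704, 0.729 and 0.766 in the vehicle libraries, which lay close together. In the estrogen libraries it was 0.639, 1.195 and 4.55, spread on both sides of the vehicle values. The mean log2 ratio was 1.05 higher with estrogen, about equal to the within-group SD of 1.02, and 0.25 higher without estrogen replicate 3. That library was also the one with the lowest fibroblast and progenitor marker sum. All 15 of those markers had a negative log2 fold change (median -1.30), their sums were 17922 to 50210 CPM with vehicle and 1893 to 12166 CPM with estrogen, and none was at 0 throughout. Their part in the Npr3 values was not tested. The opposite-strand genes Gm16048 at Npr1 and Gm5144 at Npr3 share exon bases with them and held at most 9 and 20 counts per library.

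**Figure D2:**
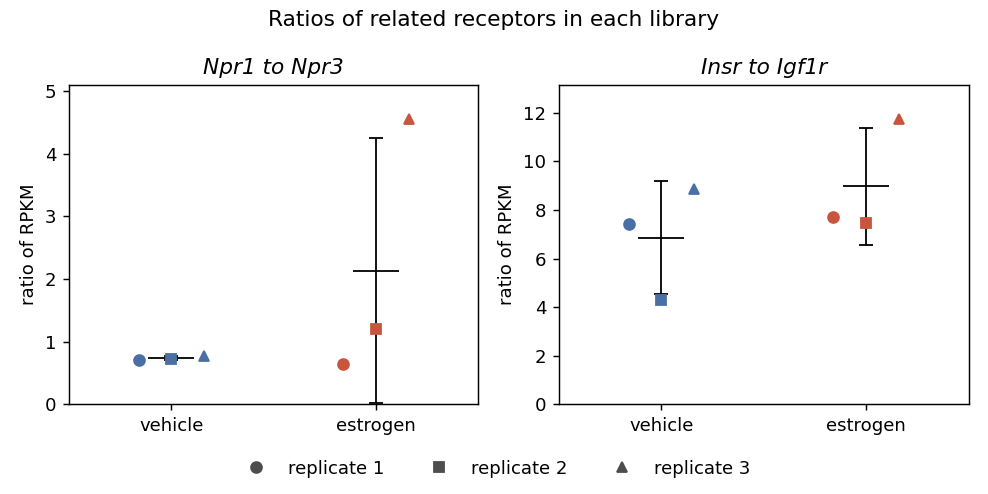
Ratio of RPKM of Npr1 to Npr3 (left) and Insr to Igf1r (right) in each library, with group means and SD as black bars and the replicate given by the symbol. The vehicle ratios of Npr1 to Npr3 lie between 0.704 and 0.766, while the estrogen ratios run from 0.639 to 4.55.

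**Figure D3:**
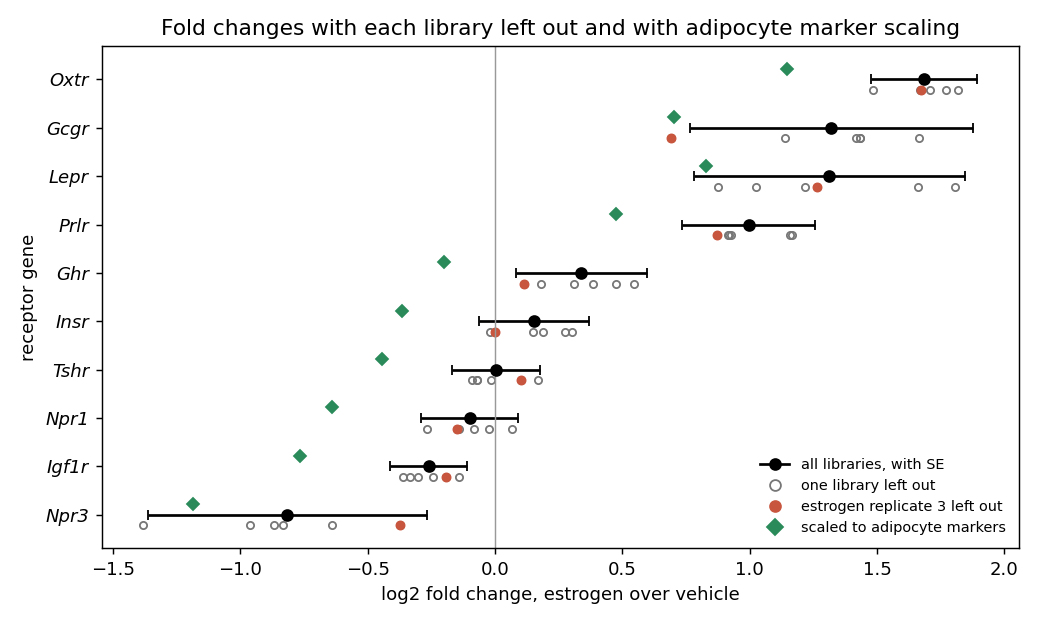
Log2 fold change, estrogen over vehicle, of each receptor with its SE (black), with each of the 6 libraries left out in turn (open circles, filled red where it was estrogen replicate 3), and with the libraries scaled to the summed adipocyte markers (green diamonds). Oxtr stays between 1.14 and 1.82 throughout, whereas Npr3 moves from -0.82 to -0.37 without estrogen replicate 3. With adipocyte marker scaling the median of all tested genes is -0.50.

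Ranked by RPKM over the 6 libraries, Ghr was the most abundant of the receptors at 104 ± 27.4 (SD, n = 6), above every value of any other. Npr3 followed at 15.7 ± 7.36, Tshr at 15.6 ± 2.25, Npr1 at 14.2 ± 2.41 and Insr at 9.88 ± 1.92. The ranges of each neighbouring pair among these 4 overlapped. Npr3 exceeded Tshr, and Tshr exceeded Npr1, in only 4 of 6 libraries, while Npr1 exceeded Insr in 6 of 6. Oxtr came next at 3.71 ± 2.16, below Insr in every library. Igf1r was at 1.29 ± 0.198, Lepr at 0.653 ± 0.452, Prlr at 0.391 ± 0.162 and Gcgr at 0.334 ± 0.255, and neighbours in this lower stretch overlapped in range, Oxtr and Igf1r included. Oxtr was above Igf1r in 5 of 6 libraries, the exception being vehicle replicate 3, where Oxtr was at 1.24 and Igf1r at 1.27 RPKM. By group mean Oxtr stood between Insr and Igf1r in both groups, at 1.24 to 2.07 RPKM with vehicle and 5.48 to 5.79 RPKM with estrogen. The receptor whose place by group mean differed was Npr3, at 19.97 ± 4.39 RPKM with vehicle (SD, n = 3), above Tshr at 15.6 ± 2.90, and at 11.3 ± 7.76 RPKM with estrogen, below Tshr at 15.7 ± 2.07 and Npr1 at 13.7 ± 1.51. This rested on estrogen replicates 2 and 3, since in estrogen replicate 1 Npr3 was above both. The lengths used are the merged exons of all annotated transcripts, such as 15339 bases for Prlr and 2621 for Gcgr. A gene expressed mainly from a shorter form is therefore placed too low, here and in the ratios between receptors.

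**Figure D4:**
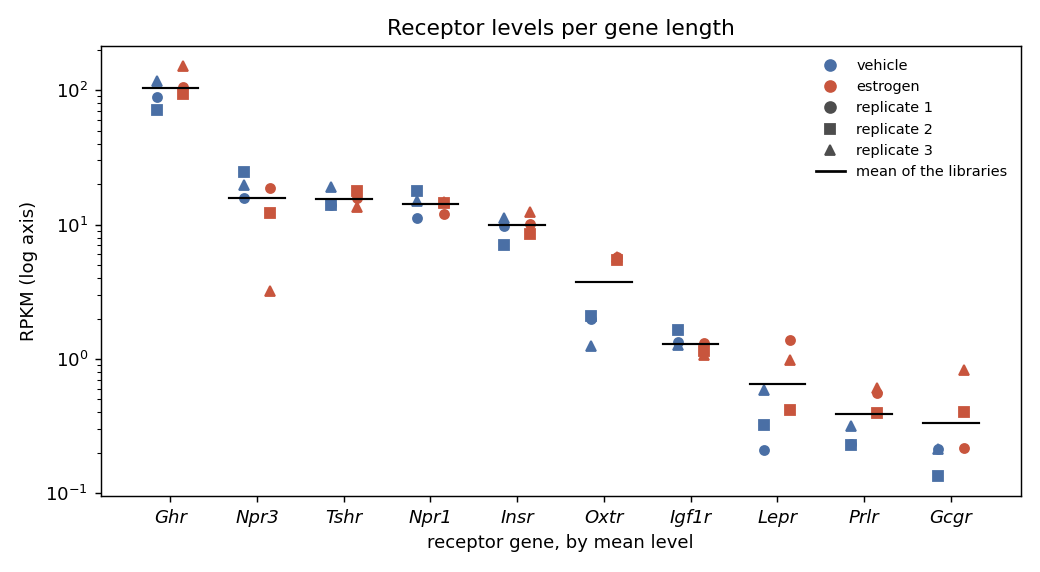
RPKM of the 10 receptors on a log axis, ordered by the mean of the 6 libraries (black lines), with vehicle libraries in blue, estrogen libraries in red and symbols for the replicate. Ghr lies from 71.0 to 150 RPKM, above all others, and the lowest 3 genes have means under 1 RPKM.

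The genes whose pattern over the 6 libraries was most like that of Oxtr were Tmie, Elovl6, Stard10, Acox2 and Ccdc57. Likeness was the root mean square difference of log2 CPM after each gene was centred on its own mean, and it was 0.21 for Tmie and 0.29 to 0.31 for the other 4, against a median of 0.91 over 12137 genes. Elovl6, a fatty acid elongase, was at 618, 555 and 240 CPM with vehicle and 1032, 1573 and 1412 CPM with estrogen, with its lowest value in the same library as Oxtr. Those nearest to Prlr were H2-Q6 (0.10), Eva1c (0.11) and Gimap6 (0.12), against a median of 0.58. H2-Q6 belongs to a family of near-identical genes and its count is uncertain. Those nearest to Npr3 were Brsk1 (0.07), Slc8a1 (0.18) and Mrgpre (0.20), against a median of 0.99, and Brsk1 was at 2.28, 1.51 and 0.348 CPM in the estrogen libraries. Several rested on few reads. Brsk1, Slc8a1 and Mrgpre had 5, 17 and 9 counts in estrogen replicate 3, and with vehicle Tmie had 25 to 34 counts and Acox2 15 to 20. All were picked as the closest of 12137 genes over only 6 libraries, so small differences follow partly from that choice.

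Of 14 ligand genes for these receptors, only Lep and Igf1 had enough counts to test. Of these, 0 passed edgeR's test, as did 0% of all genes. At an unadjusted p under 0.05 there were 0, beside 20.4% of all genes, and DESeq2 called 0, beside 6.09%. Lep, which encodes leptin, was at 177, 214 and 136 CPM with vehicle and 155, 134 and 28.6 CPM with estrogen, with its lowest value, like that of Npr3, in estrogen replicate 3 (log2 fold change -0.73 ± 0.55, SE). Igf1 was at 172, 181 and 206 CPM against 164, 143 and 162 CPM (-0.25 ± 0.13, SE). All estrogen libraries lay below all vehicle libraries for Igf1, as for 14.7% of all tested genes. The difference did not pass the test (edgeR adjusted p = 0.303). Oxt, the oxytocin gene, had 1 count in the 6 libraries, Gcg had 1, and Gh, Igf2, Tshb, Nppb and Nppc had at most 9 counts in any library. Prl, Ins1, Ins2, Cga and Nppa were at 0 in every library, so transcription of these ligands in the tissue was not detectable at this depth.

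Among 71 other peptide hormone receptors, 50 had a count and 23 could be tested, with 13 higher and 10 lower in sign and a median log2 fold change of 0.15, beside 0.0025 over all tested genes. None of them passed edgeR's test, as over all genes, or DESeq2, which called 6.09% of all genes. At an unadjusted p under 0.05, 4 were higher and 2 lower, where 20.4% of all genes passed. The 5 most abundant per length were Adipor2, Adipor1, Ednrb, Npr2 and Pth1r. Adipor2 and Adipor1, the receptors for adiponectin, had log2 fold changes of 0.45 ± 0.19 and 0.32 ± 0.12 (SE). Ednrb, the endothelin B receptor, was at 140 ± 39.7 CPM with vehicle and 74.0 ± 22.4 CPM with estrogen (SD, n = 3). Npr2, the receptor for C-type natriuretic peptide and the third of the family of Npr1 and Npr3, was at 60.8 ± 10.2 CPM against 83.8 ± 19.1 CPM (log2 fold change 0.46 ± 0.20, SE). Pth1r, the receptor for parathyroid hormone, had a log2 fold change of 0.89 ± 0.32.

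The genes that carry the signal inside the cell were described in 5 lists, and by edgeR 0 members of any passed, in either direction, after adjustment over all genes. In the Gq and calcium arm, through which oxytocin acts, 24 genes were tested, with 10 positive and 14 negative and a median log2 fold change of -0.12. At an unadjusted p under 0.05, 1 was higher and 4 lower of these 24, about the 20.4% of all genes, and DESeq2 called 1, Nfatc4, lower, beside 6.09% of all genes. The G protein genes Gnaq and Gna11 were at -0.14 ± 0.11 and 0.18 ± 0.14 (SE), and Rgs2, which dampens Gq signals, at 0.00 ± 0.28. Nfatc4, a calcium-regulated transcription factor, was at 27.9 ± 13.0 CPM against 12.6 ± 3.65 CPM (SD, n = 3; DESeq2 adjusted p = 0.0498, edgeR adjusted p = 0.207). It was highest in vehicle replicate 2 and lowest in estrogen replicate 3, as was the fibroblast and progenitor marker sum. The part of those cells in the Nfatc4 values was not tested.

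In the JAK-STAT arm, used by the prolactin, growth hormone and leptin receptors, 28 genes were tested, with 12 positive and 16 negative and a median of -0.17. Unadjusted, 2 were higher and 2 lower of 28, below the 20.4% of all genes, and DESeq2 called 1 lower, below its 6.09%. That gene was Socs3, a feedback inhibitor that cytokine signals induce, at 55.8, 54.6 and 57.4 CPM with vehicle and 31.6, 27.6 and 18.5 CPM with estrogen. The groups were far apart, with a log2 fold change of -1.11 ± 0.19 (SE; DESeq2 adjusted p = 0.00154, edgeR adjusted p = 0.207). Macrophage markers were lower with estrogen as well, all 12 with a negative log2 fold change (median -1.09), and summed to 2771 to 3961 CPM with vehicle and 709 to 2090 CPM with estrogen. Their part in the Socs3 values was not tested. Other inhibitors that cytokines induce differed in sign, with Socs1 at -0.70 ± 0.32, Socs2 at 0.53 ± 0.31 and Cish at 0.46 ± 0.63 (SE), and all 3 had overlapping groups. The kinase genes Jak1 and Jak2 were at -0.34 ± 0.16 and -0.18 ± 0.14.

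In the insulin and IGF receptor arm, 24 genes were tested, with 10 positive, 14 negative and a median of -0.02. Unadjusted, 1 was higher and 3 lower of 24, beside 20.4% of all genes, and DESeq2 called 2 lower, beside 6.09%. These were Grb10, which binds and inhibits the insulin and IGF-1 receptors, at 131 ± 45.9 CPM against 69.6 ± 7.22 CPM (SD, n = 3; DESeq2 adjusted p = 0.0358), and the transcription factor gene Foxo3, at 38.3 ± 5.55 CPM against 26.2 ± 2.31 CPM (DESeq2 adjusted p = 0.0495). Neither passed edgeR's test (adjusted p = 0.207 for each). Socs3 had the same adjusted value, which the adjustment gives to many genes at once, so it does not rank them. Grb10 was highest in vehicle replicate 2 and lowest in estrogen replicate 3, as was the fibroblast and progenitor marker sum. The part of those cells in the Grb10 values was not tested. The docking protein genes Irs1 and Irs2 were at -0.23 ± 0.20 and 0.28 ± 0.33 (SE).

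The cAMP arm, used by the thyrotropin and glucagon receptors, had 24 tested genes, 13 positive and 11 negative, with a median of 0.18. Unadjusted, 3 were higher and 5 lower of 24, beside 20.4% of all genes. DESeq2 called 1 lower, beside 6.09% of all genes, the transcription factor gene Creb1 (38.0 ± 2.63 CPM against 25.9 ± 2.35 CPM, SD, n = 3; DESeq2 adjusted p = 0.0224, edgeR adjusted p = 0.207). Gnas and Gnai1, for stimulatory and inhibitory G proteins, were at 0.22 ± 0.21 and 0.42 ± 0.19, and Pde3b, the phosphodiesterase through which insulin lowers cAMP in adipocytes, at 0.42 ± 0.23 (SE). The cGMP arm, used by Npr1, had 10 tested genes, 5 positive and 5 negative, with a median of -0.06. Unadjusted, 0 were under 0.05, beside 20.4% of all genes. DESeq2 called 0, beside 6.09%, and edgeR called 0 here as over all genes. The cGMP-dependent kinase genes Prkg1 and Prkg2 were low, at 0.836 to 2.02 and 0.418 to 3.09 CPM.

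**Figure D5:**
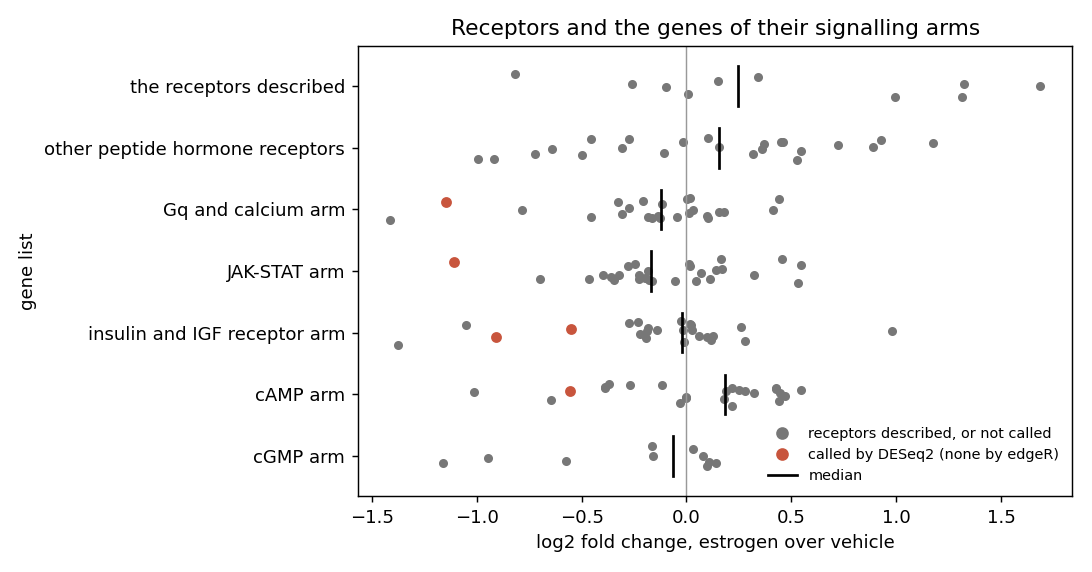
Log2 fold change, estrogen over vehicle, of the 10 receptors, of 23 other peptide hormone receptors and of the tested genes of each signalling arm, 1 point per gene, with the median as a black line and genes of the other lists called by DESeq2 in red (edgeR called 0). The 10 receptors are all drawn in grey, whatever their calls. The list medians lie between -0.17 and 0.24, and the 5 called signalling genes are all on the lower side. Over all genes DESeq2 called 6.09%, 386 higher and 468 lower.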

How the data were processed

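Reads from 6 libraries (3 vehicle, 3 estrogen) were aligned with HISAT2 and counted per gene with featureCounts on mm10, per the submitters' processing notes. Tool versions, annotation release, strand setting and handling of multi-mapping reads were not given in the sources used here. The authors deposited raw counts per gene, not normalized, with gene lengths that equal the merged exon length in GENCODE M21 for the 10 receptors. The gene length column is another value per the file headers, in bases, used for RPKM. Groups and replicate numbers came from the sample titles, and table columns were matched through the sample descriptions.

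Counts were filtered with filterByExpr (15591 genes kept) and compared with edgeR 4.0.16 (quasi-likelihood F test, TMM factors, no replicate block, Benjamini-Hochberg adjustment over all tested genes, threshold 0.05) in R 4.3.3. DESeq2 1.42.0 and limma-voom 3.58.1, other scalings and filters, blocking on replicate number and omitting single libraries were alternatives. CPM and RPKM are TMM-scaled, and standard errors come from the F statistic. The scripts were tested on simulated data. The members and the gene lists were chosen with earlier results of these data known. All 10 receptors are named, as are ligands with a count, the 5 other receptors of highest RPKM, the first 2 tested genes and a few fixed genes of each signalling arm, and the genes nearest in pattern to Oxtr, Prlr and Npr3. Socs1 and the signalling genes called only by DESeq2 were named after their values were seen.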

Additional observations from a re-analysis of the deposited data

How the results depend on the processing

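Across all genes, edgeR called 0 with TMM, DESeq2 size factor, library total and upper quartile scaling and with both other filters on low counts, with limma-voom and with a replicate block, while DESeq2 called 854 (386 higher and 468 lower). Leaving out 1 library gave 0 to 13 calls, the 13, all higher, without estrogen replicate 2. DESeq2 called 1 gene in the Gq and calcium arm, 1 in the JAK-STAT arm, 2 in the insulin and IGF receptor arm and 1 in the cAMP arm, where the other alternatives run on these lists called 0, and the cause of the difference between the tools was not tested. Whether the replicate numbers pair the libraries was not settled. Libraries of the same number in the sample titles had correlations of deviations of -0.12, 0.16 and 0.29, against -0.36 to 0.17 for libraries of different number. The deposited column names give the vehicle and estrogen libraries titled replicate 2 different numbers. That pair (0.16), and the replicate block, therefore rest on the titles alone. Vehicle replicates 2 and 3 and estrogen replicate 3 correlated best with their own number, and the other libraries did not. The block called 0 genes, as the fit without it did, so that count cannot decide the question. Of 161 alternative values for the receptor fold changes and ratios, 7 moved by more than the within-group SD. All 7 came from scaling to adipocyte markers, which put the median of all genes at -0.50 and turned the sign for Ghr, Insr and Tshr. In all, 13 alternatives changed a sign, each for Ghr, Insr, Tshr or Npr1. With library totals the median of all genes was -0.17, and the signs for Insr and Tshr turned with that shift. Gcgr did not pass a filter of at least 1 CPM in 3 libraries and has no value there. Depth limited Gcgr (7 to 31 counts per library) and most ligand genes.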
